A study of Homo sapiens with 12 samples.

Results

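The genes described are 10 that encode components of complement activation, C1R, C1S, MBL2, MASP1, MASP2, CFB, C3, C5, C8A and C8B. They were taken by symbol from a table of 16389 genes counted in HepG2, an established human liver cancer cell line, and all 10 were present in it. The 12 libraries fall into 4 groups of 3. LG cells grew in 5.5 mM glucose and HG cells in 20 mM glucose for 48 h, and LGV and HGV cells had the same media with 1 mM valproic acid (VPA) for 12 h more. All 12 came from this 1 line at passage 9, a tumour line grown without other liver cells. Whether the untreated cells were harvested at the same hour as the VPA cells is not given in the sources used here, so VPA and the added hours of culture cannot be told apart. Nothing says that the replicates were separate cultures, so the p-values measure the spread between these libraries, which may be technical.

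Complement is a chain of plasma proteins, most of them secreted by the liver, in which proteases cut the next component in turn. The classical pathway starts with the proteases C1r and C1s, the lectin pathway with mannose-binding lectin and its proteases MASP-1 and MASP-2, and the alternative pathway is driven by factor B. All pathways cut C3 and then C5, and the late components, C8 among them, build the membrane attack complex. Valproic acid is an anticonvulsant fatty acid that inhibits histone deacetylases. The study asked how high glucose changes gene expression in these cells and how VPA changes it in turn, and it singled out complement from these same libraries, so the counts of genes given here are not independent evidence of a direction. The paper also repeated the culture and measured MASP2 and C3 by quantitative PCR, reporting both as raised by glucose and attenuated by VPA. It assayed histone acetylation at their promoters as well. Those measurements are not part of the data described here.

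Each library held between 29798442 and 45572694 reads counted on genes, and 3 reads, taken as the floor of detection, correspond to 0.0713 to 0.112 CPM (read counts scaled to library size with TMM factors). Every member was above this floor in every library, the lowest being MBL2 with 26 reads in an LGV library. Hepatocyte markers were present (8 of 8 genes listed, ALB at 25294 CPM in LG), while the macrophage markers PTPRC, CD68, CD163 and MARCO, the endothelial markers PECAM1 and KDR and the stellate cell markers DES and LRAT had no row in the table used here. Of the remaining macrophage markers LYZ carried nearly all of the summed level, which ran from 909 to 1425 CPM in the low glucose groups and from 1241 to 1549 CPM in the high glucose groups. CD14, also a macrophage marker, was at 1.86, 4.43, 1.04 and 3.01 CPM (means of LG, HG, LGV and HGV). CSF1R, the remaining one in the table, was at 0.234, 0.149, 0.462 and 0.608 CPM in the same order. With VPA in high glucose CD14 and CSF1R went opposite ways, with log2 fold changes of -0.56 (FDR 0.0218) and 1.99 (FDR 0.00298). CSF1R had at most 5 reads in an HG library. The 3 endothelial markers in the table summed to 2.49 to 5.35 CPM per library and the 4 stellate cell and fibroblast markers to 44.2 to 78.6 CPM. Within the latter sum ACTA2, the gene of smooth muscle actin, moved as most members did, with a log2 fold change of 1.02 in HG against LG (FDR 5.42e-05), -0.76 in HGV against HG (FDR 0.000389) and -0.77 in LGV against LG (FDR 0.000593). PDGFRB changed by -1.02 with glucose (FDR 0.00048), RGS5 by 1.08 (FDR 0.0176), and COL1A1, with at most 86 reads in a library, by 2.52 with VPA in high glucose (FDR 8.96e-05). The part of these markers in the results was not tested.

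The levels of the 10 genes differed widely. Per kilobase of exon, C3 was at 500.4 CPM per kb in LG, followed by C5 at 21.3 and MASP1 at 7.30, and C1R was lowest at 0.382. C3 supplied between 89.7% and 93.2% of the summed CPM of the members in every library, and it ranked 13th of all genes by CPM in LG, 6th in HG, 18th in LGV and 10th in HGV. In LG the order below MASP1 was C8A (4.56), CFB (4.14), C8B (3.10), MASP2 (2.91), C1S (1.07) and MBL2 (0.882 CPM per kb). The SDs of C8A, CFB, C8B and MASP2 in LG (1.30, 0.615, 1.09 and 1.09 CPM per kb, n = 3) were wide enough that these neighbours did not differ beyond their spread, and the same held for C1S (SD 0.186) and MBL2 (SD 0.624). In HG, CFB (8.79), C8A (8.72) and C8B (8.20 CPM per kb) stood next after C3 and C5, above MASP1 (5.09) and MASP2 (4.10), and CFB and C8A differed by less than their SDs of 0.798 and 0.529. Orders per kilobase rest on the exon lengths used. By CPM in HG, MASP1 (66.7) stood above CFB (46.7), C8A (40.7) and C8B (32.2).

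**Figure D1:**
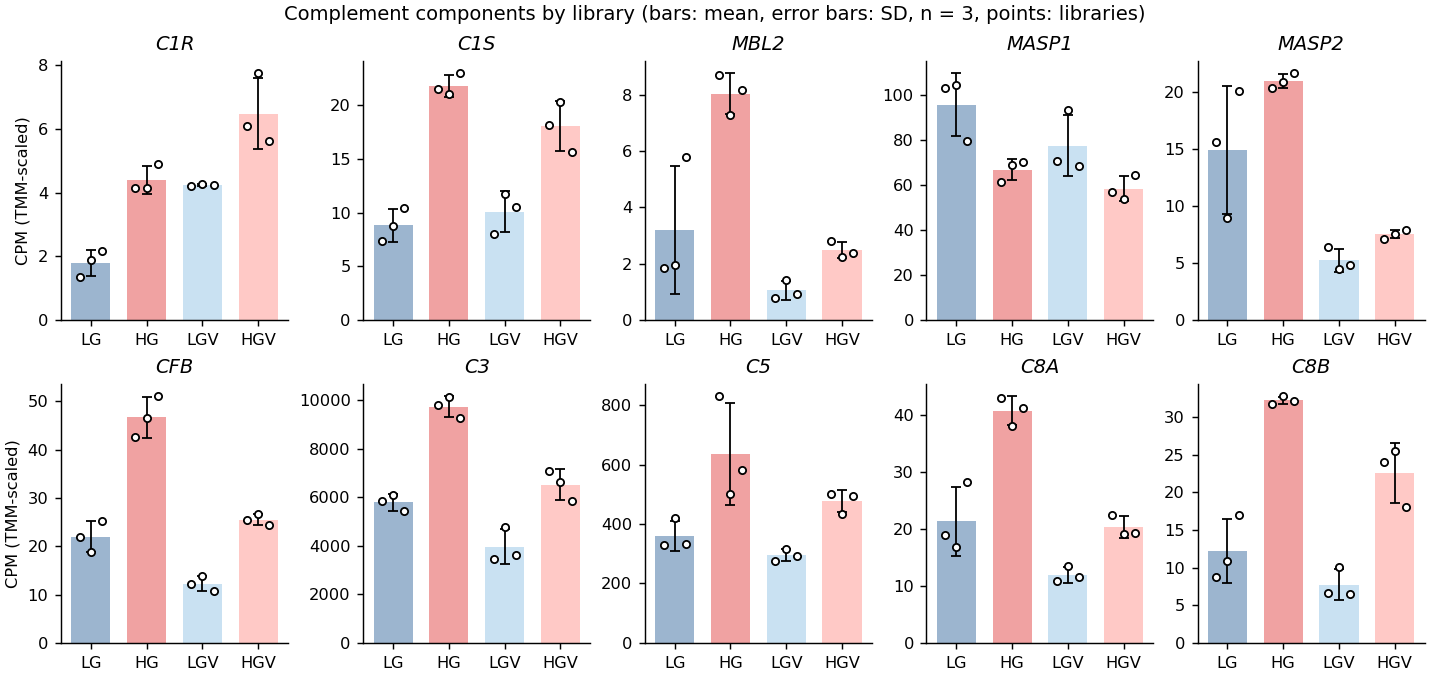
Level of each complement component in the 4 groups, as TMM-scaled CPM on separate linear axes that start at 0; bars are means, error bars SD (n = 3) and points single libraries. The HG bars exceed the LG bars for every gene but MASP1, and MBL2 and MASP2 in LGV and HGV lie below all HG libraries.

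High glucose raised most of the components in cells without VPA. Of the 10 genes, 8 were called higher in HG than in LG and 1, MASP1, lower, at a false discovery rate (FDR) of 0.05 or less by edgeR's quasi-likelihood test. Among all 15452 genes tested 24.7% were called, 12% higher and 12.7% lower. The median log2 fold change of the members was 1.03 and that of all genes 0.01. With VPA present, in HGV against LGV, all 10 were called, 9 higher and MASP1 lower, where 40.7% of all 16208 genes tested were called (21.2% higher, 19.5% lower). Their median log2 fold change was then 0.72, against 0.01 for all genes. Part of the hepatocyte markers moved with this rise, with 4 of 8 called higher (APOA1, FGB, TF and TTR) and 0 lower in HGV against LGV. The sums of the 8, 39789 to 40746 CPM in LGV and 46686 to 61328 CPM in HGV, did not overlap. ALB was the largest part of these sums (means of 19382 CPM in LGV and 24893 in HGV) and was not called (0.34, FDR 0.135). In HG against LG 2 of 8 were higher and 0 lower, and the sums overlapped (51546 to 58286 CPM in LG, 52587 to 60466 in HG).

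Addition of VPA under high glucose lowered 6 of the 10 (MBL2, MASP2, C8A, CFB, C3 and C8B) and raised C1R, and the other 3 were not called. The background was 46.1% of 16188 genes called in HGV against HG, 25.8% higher and 20.2% lower. The median log2 fold change was -0.55 for the members and 0.02 for all genes. Under low glucose MBL2, MASP2, C8A, CFB, C3 and C8B were also called lower and C1R higher in LGV against LG (6 lower, 1 higher), with a median of -0.59 for the members and -0.01 for all genes, where 41.6% of 15944 genes were called (21.7% higher, 19.9% lower). HGV against HG shares the HG libraries, and LGV against LG the LG libraries, with HG against LG, so these comparisons are not independent of it. The summed hepatocyte markers of LGV lay below those of LG without overlap, with 5 of 8 markers called lower and 0 higher. ALB was not among those called (-0.37, FDR 0.0581). In HG and HGV the sums overlapped, with 1 marker higher (TTR) and 1 lower (FGB). The part of these markers in the changes of the members was not tested.

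**Figure D2:**
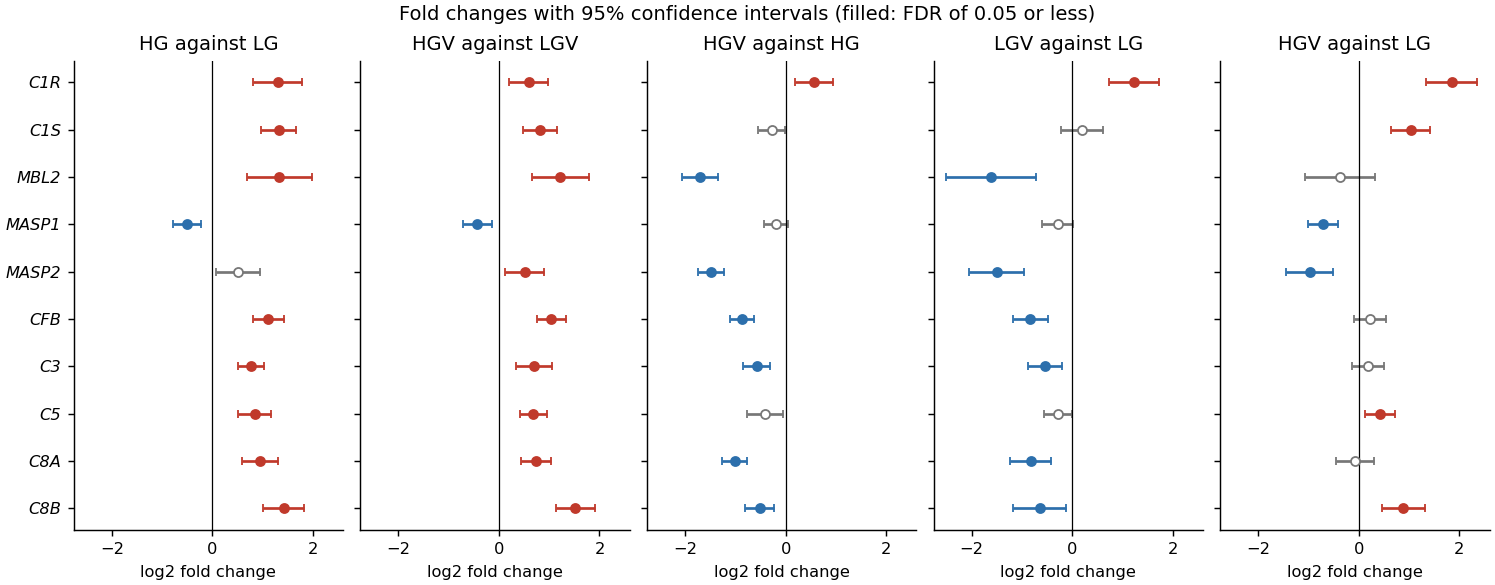
Log2 fold change of each member (dots, with 95% confidence intervals) in HG against LG, HGV against LGV, HGV against HG, LGV against LG and HGV against LG; filled dots passed an FDR of 0.05, red higher and blue lower. MASP1 alone lies left of 0 in both glucose panels, and C1R alone is called to the right of 0 in both VPA panels.

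The classical pathway proteases responded alike to glucose and differently to VPA. C1r activates C1s within the C1 complex, and C1s then cuts C4 and C2. C1R (ENSG00000159403, chromosome 12:7187513-7245203, minus strand, GRCh37) and C1S (ENSG00000182326, 12:7096351-7178336, plus strand) lie side by side with 9176 bases between them. C1R was at 1.35, 1.87 and 2.17 CPM in LG, 4.15, 4.16 and 4.90 in HG, 4.20, 4.29 and 4.24 in LGV and 6.10, 7.75 and 5.62 in HGV. All HG and LGV libraries exceeded all LG libraries, and the HGV libraries were the highest of all. The log2 fold change was 1.30 ± 0.23 (SE) with glucose (FDR 0.000646), 0.56 ± 0.17 with VPA under high glucose (FDR 0.0176) and 1.24 ± 0.23 with VPA under low glucose (FDR 0.000662). The rise in HGV against HG was not called without HGV replicate 2 (FDR 0.0562), HG replicate 1 (0.0542) or HG replicate 2 (0.061), and that in HGV against LGV (0.60 ± 0.19, FDR 0.0153) was not called without HGV replicate 2 (0.0619) or LGV replicate 3 (0.059). These values rest on 36 to 326 reads per library.

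C1S was at 7.33, 8.78 and 10.4 CPM in LG and 21.5, 21.1 and 23.0 in HG, with no overlap, a log2 fold change of 1.32 ± 0.17 (FDR 2.21e-05). With VPA it was at 8.04, 11.8 and 10.5 CPM in LGV, within and just above the LG range, and at 18.2, 20.3 and 15.7 in HGV, below all HG libraries. Neither VPA comparison was called for C1S. Its log2 fold change was 0.20 in LGV against LG (95% confidence interval -0.22 to 0.61, FDR 0.449) and -0.27 in HGV against HG (-0.55 to -0.00, FDR 0.0925), and the latter was called without HGV replicate 2 (-0.37, FDR 0.0293). The glucose difference with VPA present was 0.82 ± 0.16 (FDR 0.000634).

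Reads of C1R and C1S can be set against each other within a library, which removes the scaling between libraries. There were 0.184 to 0.213 reads of C1R per read of C1S in LG, 0.193 to 0.213 in HG, 0.365 to 0.522 in LGV and 0.336 to 0.381 in HGV. The ratio was 1.94-fold higher with VPA, a log2 difference of 0.96 (1.08 in low and 0.83 in high glucose), with no overlap between untreated and VPA libraries. The exact two-sided permutation test within glucose levels gave p = 0.005, the smallest that its 400 arrangements allow (adjusted p = 0.01 over 6 ratio tests). It was chosen after the ratios had been seen, so its p-values here and for the pairs below are descriptive. The log2 difference with glucose was -0.13 (exact permutation p = 0.21). Exons of C1R overlap those of C1RL, a related protease gene on the same strand, over 672 bases. C1RL fell with VPA (log2 fold change -1.12 in HGV against HG, -1.34 in LGV against LG) where C1R rose. With glucose C1RL rose, as C1R did (1.07, FDR 0.000951 in HG against LG and 1.25, FDR 2.48e-05 in HGV against LGV). Its mean level was far above that of C1R, at 35.6 CPM in LG and 73.4 in HG against 1.80 and 4.40. The part of this overlap in the counts of C1R was not tested.

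The lectin pathway held both the most strongly lowered genes and the one that glucose lowered. MBL2 (ENSG00000165471, 10:54525140-54532544, minus strand) encodes mannose-binding lectin, which recognises sugars on microbial surfaces. It was at 1.83, 1.95 and 5.79 CPM in LG, 8.69, 7.27 and 8.15 in HG, 0.780, 1.43 and 0.934 in LGV and 2.79, 2.24 and 2.38 in HGV. HG stood above every other group without overlap, and LGV below every other group. LG replicate 3 was the only LG library above the HGV libraries. MBL2 rose with glucose by 1.33 ± 0.31 (FDR 0.00464) and fell with VPA by 1.70 on the log2 scale under high glucose (log2 fold change -1.70 ± 0.17, FDR 4.53e-06), a 3.26-fold fall. Under low glucose the change was -1.62 ± 0.42 (FDR 0.00637). Without LG replicate 3 the glucose change was 2.11 and the VPA change under low glucose -0.83 (FDR 0.0442), and without LG replicate 1 the glucose change was not called (1.10, FDR 0.0524).

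MASP2 (ENSG00000009724, 1:11082066-11107296, minus strand) encodes the lectin pathway protease that cuts C4 and C2. Its levels were 15.6, 8.96 and 20.1 CPM in LG, 20.4, 20.9 and 21.6 in HG, 6.39, 4.42 and 4.80 in LGV and 7.11, 7.54 and 7.85 in HGV. Every VPA library lay below every untreated library. The log2 fold change with VPA was -1.48 ± 0.12 under high glucose (FDR 1.01e-06) and -1.50 ± 0.26 under low glucose (FDR 0.0003). Glucose gave 0.52 without VPA (95% confidence interval 0.08 to 0.96), which was not called (FDR 0.0767), was called without LG replicate 3 (0.81, FDR 0.00343), and was 0.27 without LG replicate 2 (FDR 0.241). With VPA the difference of 0.51 ± 0.18 was called (FDR 0.0323), but not without HGV replicate 1 or 3 or LGV replicate 2 or 3 (FDR 0.0594, 0.0878, 0.143 and 0.135).

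MASP1 (ENSG00000127241, 3:186935070-187009768, minus strand) encodes the protease that activates MASP-2, and alternative products of the gene are not separated by counts per gene. It was the one member that fell with glucose, from 103, 105 and 79.8 CPM in LG to 61.4, 68.8 and 70.1 in HG, without overlap (log2 fold change -0.50 ± 0.13, FDR 0.0107). VPA libraries held 70.7, 93.3 and 68.6 CPM in LGV and 56.8, 53.8 and 64.6 in HGV, and both overlapped their untreated group. The VPA change was not called in either medium (-0.19, 95% confidence interval -0.43 to 0.04, FDR 0.170 in high glucose and -0.29, -0.60 to 0.02, FDR 0.122 in low glucose), although the latter was called without LGV replicate 2 (-0.45, FDR 0.0325) or LG replicate 3 (-0.39, FDR 0.03). The glucose fall was not called without HG replicate 1 (FDR 0.0557) or LG replicate 1 (0.0702), and that with VPA present (-0.43 ± 0.14, FDR 0.0172) not without HGV replicate 1 (0.0619) or LGV replicate 2 (-0.27, FDR 0.157).

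The balance of the MASP genes differed with both exposures. Reads of MASP1 per read of MASP2 were 3.97 to 11.7 in LG, 3.02 to 3.29 in HG, 11.1 to 21.1 in LGV and 7.13 to 8.23 in HGV. The ratio was 2.33-fold higher with VPA (log2 difference 1.22, exact permutation p = 0.01, adjusted 0.015), by 1.15 in low and 1.29 in high glucose. It was 0.495 times as high with high glucose (log2 difference -1.01, exact permutation p = 0.005, adjusted 0.01), by -1.08 without and -0.94 with VPA. LG spread the most, with the lowest value in replicate 3.

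**Figure D3:**
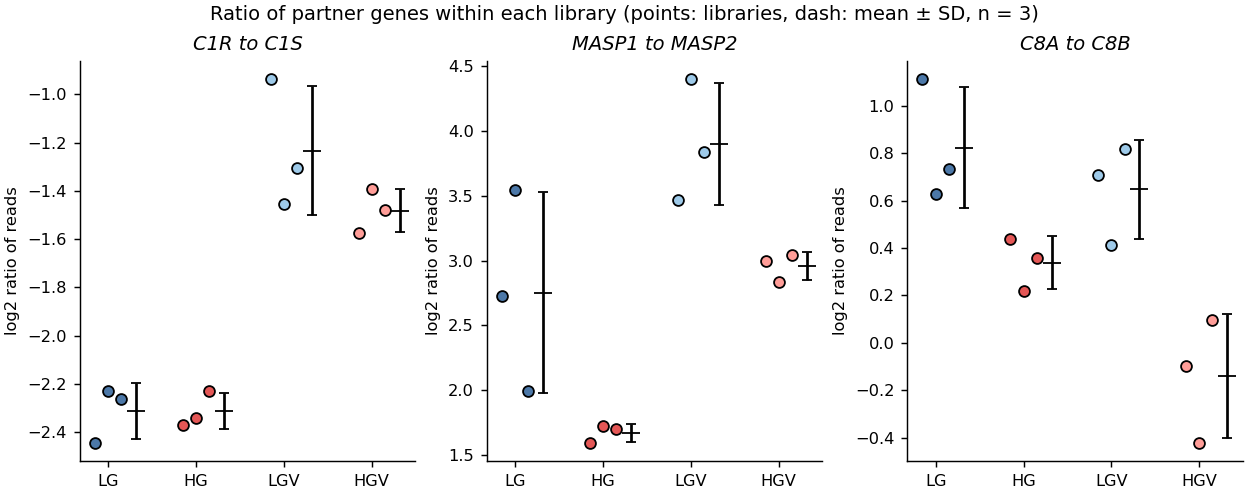
Log2 ratio of reads of C1R to C1S, MASP1 to MASP2 and C8A to C8B within each library (points), with mean and SD (n = 3) per group on separate axes that do not start at 0. The C1R to C1S ratio separates VPA from untreated libraries, the MASP ratio is lowest in HG, and the C8A to C8B ratio is lowest in HGV.

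Factor B carries the protease of the alternative pathway's C3 convertase. CFB (ENSG00000243649, 6:31913427-31919863, plus strand) was at 22.0, 18.7 and 25.2 CPM in LG, 42.5, 46.6 and 51.0 in HG, 12.3, 13.8 and 10.7 in LGV and 25.5, 26.7 and 24.4 in HGV. The groups were separate except for HGV and LG, which overlapped. CFB rose 2.16-fold with glucose (log2 fold change 1.11 ± 0.15, FDR 4.16e-05) and fell with VPA by similar amounts in high (-0.87 ± 0.11, FDR 4.04e-05) and low glucose (-0.83 ± 0.16, FDR 0.000788). With VPA present the glucose difference was 1.04 ± 0.14 (FDR 1.90e-05). Exons of CFB overlap a read-through gene on the same strand (ENSG00000244255, 2249 bases), which has no row in the table used here, and C2 over 24 bases.

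C3 is the component that all pathways cut, and C5 is cut next to start the membrane attack complex. C3 (ENSG00000125730, 19:6677715-6730573, minus strand) was at 5854, 6101 and 5426 CPM in LG, 9801, 10108 and 9275 in HG, 3462, 4793 and 3621 in LGV and 7101, 6625 and 5835 in HGV. HG was above and LGV below every other group, and HGV overlapped LG. C3 rose 1.71-fold with glucose (log2 fold change 0.77 ± 0.12, FDR 0.000203), and fell with VPA in high glucose (-0.58 ± 0.13, FDR 0.0023) and in low glucose (-0.54 ± 0.16, FDR 0.0121). The last call was lost without LGV replicate 3 (FDR 0.0765) or LG replicate 1 (0.0556). With VPA present the glucose difference was 0.70 ± 0.17 (FDR 0.00317). C3 took 0.370% to 1.02% of the reads of a library.

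C5 (ENSG00000106804, 9:123695265-123837473, minus strand) was at 328, 420 and 332 CPM in LG and 829, 500 and 581 in HG, with the most uneven HG libraries of the 10 genes. It rose with glucose by 0.84 ± 0.16 on the log2 scale (FDR 0.000875), and by 0.68 ± 0.13 with VPA present (FDR 0.00043). VPA libraries held 276, 316 and 292 CPM in LGV, all below LG, and 503, 435 and 495 in HGV, where replicate 1 lay above HG replicate 2. Neither VPA change was called, at -0.41 in high glucose (95% confidence interval -0.77 to -0.06, FDR 0.0543) and -0.28 in low glucose (FDR 0.101). The first lay at the threshold. It was called without HG replicate 2 (-0.56, FDR 0.0153), with DESeq2's Wald test (FDR 0.0131), with edgeR's likelihood ratio test (FDR 0.0329), with DESeq2 size factors (FDR 0.0294) and with one fit of the 12 libraries (FDR 0.0347). Without HG replicate 1 it was -0.20 (FDR 0.220).

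C8 is built from an alpha, a beta and a gamma chain and inserts into membranes as part of the attack complex. C8A (ENSG00000157131, 1:57320441-57383896, plus strand) and C8B (ENSG00000021852, 1:57394880-57440056, minus strand) encode the alpha and beta chains and lie 10983 bases apart. C8A was at 18.9, 16.8 and 28.2 CPM in LG, 43.0, 38.1 and 41.2 in HG, 10.8, 13.5 and 11.6 in LGV and 22.5, 19.0 and 19.2 in HGV. HG was highest and LGV lowest without overlap, and HGV fell within the LG range. The log2 fold change of C8A was 0.95 ± 0.17 with glucose (FDR 0.000604), -1.01 ± 0.12 with VPA in high glucose (FDR 1.70e-05) and -0.83 ± 0.19 in low glucose (FDR 0.00304). HGV exceeded LGV by 0.74 ± 0.14 (FDR 0.000534).

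C8B was at 8.75, 10.9 and 17.0 CPM in LG, 31.7, 32.7 and 32.2 in HG, 6.60, 10.1 and 6.57 in LGV and 24.1, 25.5 and 18.0 in HGV. All libraries with high glucose exceeded all with low glucose. The glucose change of C8B was 1.42 ± 0.19 without VPA (FDR 5.28e-05), within its SE of those of MBL2, C1S and C1R, and 1.52 ± 0.18 with VPA (FDR 7.47e-06). VPA lowered it by 0.52 in high glucose (log2 fold change -0.52 ± 0.13, FDR 0.00738), while the fall in low glucose (-0.65 ± 0.25, FDR 0.0457) was at the threshold and was lost without LGV replicate 1 (FDR 0.142), LGV replicate 3 (0.180) or LG replicate 3 (-0.32, FDR 0.257), with library size in place of TMM factors (0.153) and with a filter of 1 CPM in at least 3 libraries (0.0558).

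Within libraries there were 1.55 to 2.16 reads of C8A per read of C8B in LG, 1.16 to 1.36 in HG, 1.33 to 1.76 in LGV and 0.747 to 1.07 in HGV. High glucose lowered this ratio to 0.642 times (log2 difference -0.64, exact permutation p = 0.005, adjusted 0.01), by -0.49 without and -0.79 with VPA. VPA gave a smaller log2 difference of -0.33 (exact permutation p = 0.035, adjusted 0.042), which did not pass without HG replicate 1, 2 or 3, HGV replicate 2, LG replicate 1 or LGV replicate 2 (exact permutation p between 0.055 and 0.08).

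LG replicate 3 stood toward the HG libraries for several members. It held the highest LG level of 7 of the 10 genes, among them MBL2, MASP2, C8A and C8B, and LGV replicate 2 held the highest LGV level of 9 of the 10. The results that turned on these libraries are given above with and without them.

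Against the starting state, cells with both exposures differed in part of the genes. In HGV against LG, C1R (log2 fold change 1.85 ± 0.25, FDR 1.38e-06), C1S (1.03 ± 0.19, FDR 6.39e-05), C8B (0.89 ± 0.21, FDR 0.00114) and C5 (0.42 ± 0.15, FDR 0.0199) were higher. MASP2 (-0.98 ± 0.23, FDR 0.000932) and MASP1 (-0.70 ± 0.14, FDR 0.000282) were lower. The rest were not called, with 95% confidence intervals of -0.14 to 0.50 for C3, -0.10 to 0.55 for CFB, -0.45 to 0.31 for C8A and -1.08 to 0.32 for MBL2, which leave room for changes of either sign. Of all 16266 genes tested 52.2% were called (27.9% higher, 24.3% lower), so 6 of 10 is near the background. C5 was not called without HGV replicate 1, HGV replicate 3, LG replicate 1 or LG replicate 3 (FDR 0.074, 0.07, 0.11 and 0.0512). This comparison shares its libraries with those above. C3 (0.41, FDR 0.0102) and CFB (0.45, FDR 0.0324) were called higher with library size in place of TMM factors, which moved the median of all genes from 0.02 to 0.25.

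Whether VPA acted differently in the 2 media was tested as the interaction over the 12 libraries. By edgeR's quasi-likelihood test 0 of the 10 members passed, and 1, C1R, had an unadjusted p under 0.05 (log2 difference of the VPA changes -0.66 ± 0.28, unadjusted p 0.0294, FDR 0.375). The likelihood ratio test and DESeq2 also called 0. Over all 16389 genes 7 were called (0.0427%, 0.0244% higher and 0.0183% lower). The intervals were -0.43 to 0.38 for C3, -0.43 to 0.37 for CFB, -0.65 to 0.31 for C8A, -0.59 to 0.66 for MASP2 and -1.10 to 0.95 for MBL2, and differences between the media within these bounds were not detectable here.

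**Figure D4:**
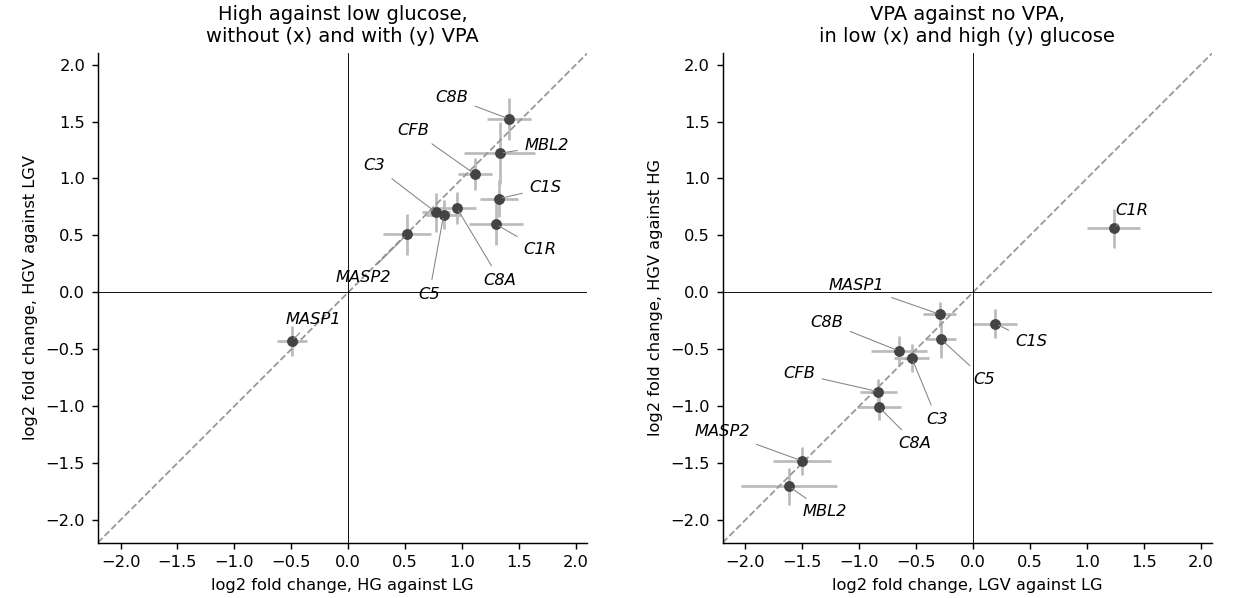
Left, log2 fold change of high against low glucose without VPA (x) and with VPA (y); right, log2 fold change of VPA against none in low (x) and high glucose (y), for the 10 members with SE bars and a dashed line of equal change. C1R, C1S, C3, C5, C8A, CFB and MBL2 lie below the line in both panels, C1R and C1S farthest from it. No interaction of a member passed an FDR of 0.05.

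Across the 12 libraries the levels of several members ran together, as a description over groups that share their libraries. Pearson's r of log2 CPM was 0.99 between C8A and MBL2, 0.965 between C8A and CFB and 0.957 between C3 and CFB. It was 0.885 between C8A and C8B, 0.713 between C1R and C1S, where C1S was the member most like C1R, and 0.025 between MASP1 and MASP2. Outside the members, the 2 genes most like C3 were C4B (0.99) and C4A (0.983), which encode the component that precedes it in the classical and lectin pathways. For CFB they were ACTA2 (0.985), which is also on the stellate cell list above, and RBPMS-AS1 (0.981), for MASP2 VPS52 (0.991) and CLUHP3 (0.987), for MBL2 PCYT1B (0.978) and ANP32A (0.967), and for C8A ANP32A (0.98) and HPR (0.976). C1R was most like ZNF618 (0.982) and ACR (0.972), C1S RP3-508I15.9 (0.954) and NAF1 (0.95), C5 SULT1E1 (0.944) and FGB (0.936), C8B CTGF (0.97) and OCRL (0.969), and MASP1 CNNM3 (0.962) and RPSAP9 (0.958).

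Promoters are shown for MBL2 and C8A, the pair of members with the highest r. Those of MASP2, which VPA lowered in both media, and of C1R, which it raised in both, are also shown. Each line gives the 250 bases before the RefSeq start, 5′ to 3′ on the gene's strand, from the GRCh38.p14 table, placed on GRCh37 by exact match at chr10:54532545-54532794 (MBL2), chr1:57320220-57320469 (C8A), chr1:11107297-11107546 (MASP2) and chr12:7245042-7245291 (C1R). MBL2 and C1R each have 2 starts, and only the first of each is shown. Capitals mark matches to the motifs named after them.
MBL2: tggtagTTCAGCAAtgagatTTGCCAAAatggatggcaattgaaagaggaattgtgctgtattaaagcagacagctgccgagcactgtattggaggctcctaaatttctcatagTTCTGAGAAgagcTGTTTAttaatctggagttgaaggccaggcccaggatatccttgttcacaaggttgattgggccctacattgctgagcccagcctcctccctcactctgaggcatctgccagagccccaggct
C8A: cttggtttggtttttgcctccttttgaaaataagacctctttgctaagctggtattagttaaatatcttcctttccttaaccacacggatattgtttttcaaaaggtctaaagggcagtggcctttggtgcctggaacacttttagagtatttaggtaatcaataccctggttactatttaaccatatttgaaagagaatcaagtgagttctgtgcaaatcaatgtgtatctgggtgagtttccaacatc
MASP2: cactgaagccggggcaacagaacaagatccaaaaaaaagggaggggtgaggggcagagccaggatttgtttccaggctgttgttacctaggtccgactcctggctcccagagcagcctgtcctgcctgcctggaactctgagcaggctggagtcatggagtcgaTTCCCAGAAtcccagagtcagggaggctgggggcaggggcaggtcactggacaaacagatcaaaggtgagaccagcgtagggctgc
C1R: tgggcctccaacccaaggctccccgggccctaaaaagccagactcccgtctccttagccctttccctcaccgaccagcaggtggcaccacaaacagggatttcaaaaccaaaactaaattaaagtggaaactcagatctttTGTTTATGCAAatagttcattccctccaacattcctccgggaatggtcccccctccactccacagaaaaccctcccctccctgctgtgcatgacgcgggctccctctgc
Of the 10 members 8 matched the table, with 11 starts. Letters of 8 short motifs were searched on both strands. The promoters of MBL2 and C8A, the pair with the highest r, shared none of the marked matches, since C8A has none of the 8 motifs in this window. In MBL2 the capitals are 2 C/EBP matches, a STAT match and a FOXA match, in MASP2 a STAT match, and in C1R a FOXA and a C/EBP match that overlap. Over the 11 starts, the STAT letters TTCNNNGAA were found at 4 (C1R, CFB, MASP2 and MBL2) and in 6.57% of all 35116 promoters of the table. The FOXA letters TGTTTA were found at 4 starts (C1R, C8B and both of MBL2) and in 11% of all. HNF1, searched as GTTAAT, matched 3 starts (C1R, C5 and MBL2) and 6.23% of all promoters. C/EBP, searched as TTGCNNAA, matched 3 starts (both of C1R and the first of MBL2) and 9.05%. NF-kB, searched as GGGA, any 4 bases and CC, matched 2 starts (C1R and CFB) and 22.6%. The STAT and NF-kB matches of C1R and the HNF1 matches of C1R and MBL2 lie before their second starts, which are not shown. HNF4, searched as CAAAGT, matched C8B and 10.3%, where one match overlaps a FOXA match. The TATA box TATAAA matched CFB and 10.7% of all promoters, and the E-box CACGTG 0 members and 6.34%. These matches are letters in a window and not bound sites.

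Among 8 other activation and terminal components in the table, 4 were higher in HG than in LG (C6, CFD, C4B and C4A) and 1 lower (COLEC11). Over all genes tested 24.7% were called, 12% higher and 12.7% lower. C6, a part of the attack complex, rose by 1.28 ± 0.29 on the log2 scale (FDR 0.00332), and CFD, the protease that cuts factor B, by 0.94 ± 0.27 (FDR 0.0161). COLEC11, a lectin of the same pathway as MBL2, changed by -0.60 ± 0.18 (FDR 0.0188). VPA in high glucose lowered 4 of the 8 (C4A, C4B, COLEC11 and C2) and raised CFD. For that comparison the share over all genes was 46.1%, 25.8% higher and 20.2% lower. C4A (-0.69 ± 0.12, FDR 0.000528) and C4B (-0.68 ± 0.13, FDR 0.000726) are near-identical copies, so the split of reads between them is uncertain. CFD rose with both exposures, from 1.77 ± 0.67 CPM in LG to 3.32 ± 0.10 in HG and 8.32 ± 1.31 in HGV (SD, n = 3), and its VPA change was 1.32 ± 0.17 (FDR 3.79e-05). The gamma chain gene C8G was not called with glucose or with VPA in high glucose.

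Of 11 regulators in the table, 3 rose with glucose (SERPING1, CFI and VTN) and 2 fell (CD55 and C4BPB), where 24.7% of all genes were called (12% higher, 12.7% lower). SERPING1, the inhibitor of C1r, C1s and the MASPs, changed by 2.15 ± 0.14 (FDR 1.26e-08), more than any member, was not called with VPA in high glucose (0.01 ± 0.17, FDR 0.969) and rose with VPA in low glucose (0.77 ± 0.14, FDR 0.000423). The difference between its VPA changes in the 2 media was not called (interaction -0.75 ± 0.22, FDR 0.178). CFI, the protease that inactivates C3b and C4b, changed by 0.73 ± 0.18 (FDR 0.00627), CD55, a membrane inhibitor of convertases, by -0.61 ± 0.13 (FDR 0.00277), and C4BPB, a chain of the C4b-binding protein, by -0.57 ± 0.12 (FDR 0.00184). VPA in high glucose lowered 4 of the 11 (CPN2, C4BPB, VTN and C4BPA) and raised 0, where 46.1% of all genes were called (20.2% lower, 25.8% higher). In low glucose it raised 2 (SERPING1 and CD55) and lowered 4, where 41.6% of all genes were called (21.7% higher, 19.9% lower). CPN2, a subunit of the carboxypeptidase that trims C3a and C5a, changed by -1.47 ± 0.10 (FDR 3.4e-07) and C4BPB by -1.35 ± 0.10 (FDR 4.67e-07), close to the falls of MASP2 and MBL2. Of 3 receptor genes in the table, C5AR1 (0.68 ± 0.19, FDR 0.0131) and ITGB2 (0.47 ± 0.15, FDR 0.028) were the 2 tested in HG against LG and both were higher. C5AR2 was the 1 of 3 called in HGV against HG (2.92 ± 0.35, FDR 2.28e-05), from 0.148 to 1.16 CPM, with at most 6 reads in an HG library.

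**Figure D5:**
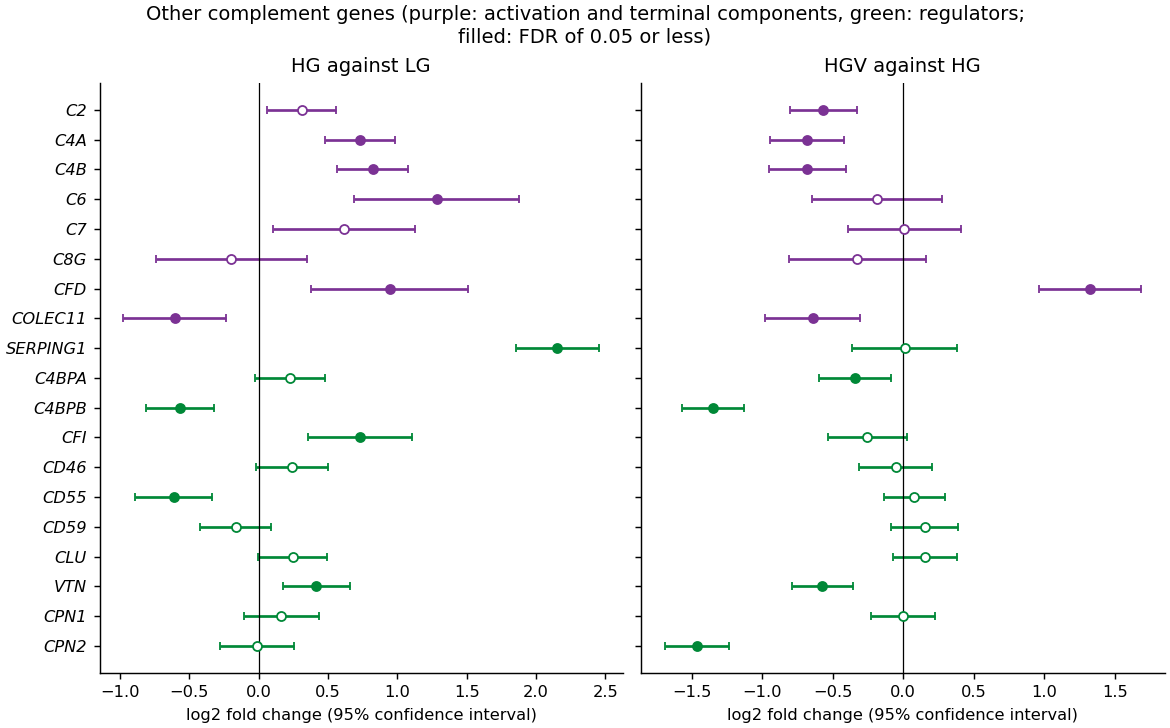
Log2 fold change with 95% confidence interval of the other activation and terminal components (purple) and the regulators (green) in HG against LG and HGV against HG; filled dots passed an FDR of 0.05. SERPING1 is farthest right with glucose, and CPN2 and C4BPB are farthest left with VPA.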

How the data were processed

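Poly(A) RNA of 12 HepG2 libraries, 3 per group, was read as single 50 nt ends with a directional kit. The authors trimmed the reads, aligned them to GRCh37 with STAR and counted them per gene with featureCounts, keeping those with a mapping quality of at least 10. The table deposited holds unnormalized read counts of 16389 genes, each averaging at least 10 reads. The strand setting of the counting is not given in the sources used here, so reads of overlapping genes on opposite strands (C5 and CNTRL, MASP2 and TARDBP) may not be separated. The labels name bcl2fastq 2.17.1.14 and give no batch.

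The whole table was fitted in edgeR 4.0.16 (R 4.3.3) with TMM factors and the quasi-likelihood F test, in the libraries of each comparison (all 12 for the interaction). A mean count of at least 10 in those libraries was required, Benjamini-Hochberg adjustment ran over all genes tested, and an FDR of 0.05 was the threshold. The SE was taken from the log2 fold change and its F value. Levels are CPM scaled with TMM factors, divided by union exon length (GENCODE models on GRCh37, 97.47% of identifiers found) where genes are compared. The authors counted reads on an Ensembl annotation, so these lengths may differ from the exons counted. Ratios of partner genes were compared by exact permutation within the strata of the other factor, a test chosen after their values were seen. That permutation test was checked on constructed values with a known answer, and the edgeR fit on simulated counts.

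Members and gene lists were chosen with earlier results of these data known. All 10 members are named. Of the other complement genes, those with the 2 largest rises and falls among the called ones in HG against LG or HGV against HG are named in each list, with counts of 5 or fewer, and for each member the 2 genes with the highest r. Alternatives were DESeq2 1.42.0 (size factors and Wald test), library size, the likelihood ratio test, other filters, blocking on replicate number, a joint fit of 12 libraries, an FDR of 0.01 and leaving out each library. Precision covers counting error and the spread between libraries only.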

Additional observations from a re-analysis of the deposited data

How the results depend on the processing

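The number of members called stayed within 1.5 times that reported in every comparison and under every alternative. Leaving out 1 library gave 7 to 10 called in HG against LG, 6 to 7 in HGV against HG, 5 to 8 in LGV against LG, 8 to 10 in HGV against LGV, 5 to 6 in HGV against LG and 0 for the interaction. No member called in a comparison changed direction, and the values that did had not been called. With library size only, C8A in HGV against LG became 0.15 and the interaction of MASP2 -0.013. Over leave-one-out, C8A in HGV against LG ran from -0.22 to 0.19 and MBL2 from -0.66 to 0.39, and the interaction ran from -0.25 to 0.27 for MASP2, -0.84 to 0.18 for MBL2, -0.14 to 0.042 for CFB, -0.17 to 0.35 for C8B, -0.12 to 0.10 for C3 and -0.29 to 0.068 for C5. The cause was not tested. Library size in place of TMM factors moved the median of all genes from 0.02 to 0.15 in HGV against HG, from -0.01 to 0.16 in LGV against LG and from 0.02 to 0.25 in HGV against LG, and the split of calls over all genes from 1854 higher and 1959 lower to 2172 and 1297 in HG against LG, from 4184 and 3272 to 5182 and 2424 in HGV against HG, from 3461 and 3177 to 4500 and 1956 in LGV against LG, from 4543 and 3948 to 6004 and 2353 in HGV against LG, and 3761 higher and 2309 lower in HGV against LGV, where it was 3444 and 3160. At an FDR of 0.01, 1852 rather than 3813 genes were called in HG against LG and 4263 rather than 6604 in HGV against LGV, C1R, MASP1 and MASP2 among the latter losses. Without LG replicate 1 or HG replicate 3 HG against LG called 1933 and 2076 genes. The interaction called 7 genes, 202 by the likelihood ratio test, 162 by DESeq2, 13 with the block, and from 1 to 217 with a library left out. The same replicate number did not mark libraries that deviate together (1 to 3 of 6 libraries in a comparison were most like the one of their own number, and no comparison had every same-number correlation over 0.1). With the replicate block 10 members were called in HG against LG (MASP2 at FDR 0.0209), 8 in HGV against HG (C5 at FDR 0.0139), 7 in LGV against LG, 10 in HGV against LGV, 6 in HGV against LG and 0 for the interaction. MBL2 in HG against LG was not called by DESeq2's Wald test (FDR 0.0513), nor MASP1 in HGV against LGV with library size (FDR 0.0524), nor MASP2 there with one fit of 12 libraries (FDR 0.0619). With 26 to 326 reads per library, MBL2 and C1R are the members whose precision counting limits most.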
